A study of Mus musculus with 10 samples.

Results

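The mitochondrial genome carries 37 of the 55536 genes in the deposited count table, and these 37, chosen as every gene whose symbol starts with mt-, are described here over 10 libraries of mouse fetal oocytes. They comprise 13 protein genes, 2 ribosomal RNA (rRNA) genes and 22 transfer RNA (tRNA) genes, and each lies on chromosome M of GRCm38. The cells came from female fetuses at E14.5 (embryonic days) and were sorted as live, GFP-positive cells from dissociated gonads. The parents were homozygous for an Oct4-EGFP reporter transgene and heterozygous for the Taf4b-deficiency mutation, so every group carried the reporter, and the strain is given as C57BL/6. The design asks how oocytes differ without Taf4b, a gonad-enriched subunit of the general transcription factor TFIID, and compares 4 Taf4b-deficient libraries, whose phenotype the labels give as infertile, with 4 Taf4b-heterozygous and 2 Taf4b-wildtype libraries, both given as fertile. By litter date, 4 libraries belong to January 29 (deficient 1 and 2, heterozygous 4, wildtype 1), 2 to March 1 (deficient 3, wildtype 2) and 4 to March 7 (deficient 4, heterozygous 1 to 3). Libraries are numbered by their replicate within a genotype, and values for a genotype follow that order. Whether they stand for separate animals is not stated, and p-values therefore cover only the spread among them, some of which may be technical.

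Totals ran from 28949924 to 44166320 reads per library. Levels are given in CPM, read counts relative to all reads in tested genes, corrected for composition by TMM. Taf4b stood between 56.1 and 64.9 CPM in the deficient libraries and between 144 and 234 CPM in the 6 others. The germ cell genes Dazl and Ddx4 stood between 2284 and 2780 CPM and between 696 and 1085 CPM in the 10 libraries. The 10 germ cell markers summed to between 5538 and 6801 CPM, against 26.1 to 66.6 CPM for 14 pregranulosa markers, 6.21 to 17.4 CPM for 11 stromal markers and 72.5 to 391 CPM for 8 endothelial markers. The endothelial sum was 98.1 to 385 CPM in deficient libraries, 72.5 to 391 CPM in heterozygous and 181 to 234 CPM in wildtype ones. Deficient replicates 2 and 4 and heterozygous replicate 3 were low in Lars2 (634 to 2026 CPM, against 12026 to 16988 CPM in the other 7 libraries) and in Gm23935, and are given library by library below. Both Lars2 and Gm23935 can collect reads of ribosomal RNA. For Lars2 the gap was in counts only. In the deposited TPM values Lars2 stood at 20.94 to 23.97 in these 3 libraries and at 16.21 to 28.41 in the other 7. Low in Lars2 therefore refers to counts throughout.

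Mammalian mitochondrial DNA is a small circle inherited from the mother, read by its own RNA polymerase, Polrmt, into long transcripts of each strand. Enzymes cut the tRNAs out of these transcripts and so release the mRNAs and rRNAs that lie between them. The mRNAs encode core subunits of the respiratory chain and of ATP synthase, and oocytes accumulate large numbers of mitochondria as they grow.

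The sequences of 5 tRNA genes, of 69 to 75 bases, are shown. mt-Ta, mt-Ts1 and mt-Tq are the members whose heterozygous libraries did not overlap with the 6 others, mt-Tn is the neighbour that mt-Ta is set against, and mt-Tl1 is a leucine tRNA gene, the kind that Lars2 serves. They are given as RNA-sense DNA letters from the GENCODE M21 transcripts of GRCm38, with the anticodon in capitals. mt-Ta carries alanine (chrM:5018-5086, minus strand), mt-Ts1 serine (chrM:6870-6938, minus strand), mt-Tq glutamine (chrM:3772-3842, minus strand), mt-Tn asparagine (chrM:5089-5159, minus strand) and mt-Tl1 leucine (chrM:2676-2750, plus strand).
mt-Ta: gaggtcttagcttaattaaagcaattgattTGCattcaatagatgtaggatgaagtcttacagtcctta
mt-Ts1: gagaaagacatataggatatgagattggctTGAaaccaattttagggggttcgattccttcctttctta
mt-Tq: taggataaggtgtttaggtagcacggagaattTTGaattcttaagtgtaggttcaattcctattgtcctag
mt-Tn: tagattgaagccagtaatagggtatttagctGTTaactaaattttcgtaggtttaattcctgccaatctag
mt-Tl1: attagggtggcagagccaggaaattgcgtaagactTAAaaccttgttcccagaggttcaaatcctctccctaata

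All 37 genes together took between 0.528% (heterozygous replicate 3) and 1.65% (wildtype replicate 1) of a library's reads. Reads were found for 36 of them. The other was mt-Td, the aspartate tRNA gene, with 0 reads in each library. Counting error alone would allow a level of up to 0.101 CPM in the shallowest library (3 reads). This limit does not cover reads left out of the counts because they matched several places, and how such reads were treated is not stated. The deposited TPM values list mt-Td at 1.36 to 4.66. A filter on low counts left 25 of the 37 for testing: 13 protein genes, 2 rRNA genes and 10 tRNA genes. The tested tRNA genes were 8 of 8 on the minus strand and 2 of 14 on the plus strand (mt-Tl1 and mt-Tm), and none of the 12 left out had more than 14 reads in any library. No member was called in any of the 4 comparisons by edgeR's quasi-likelihood test at an adjusted p under 0.05, where 0.0148% of the 20317 tested genes were called in deficient against heterozygous libraries, 0% in deficient against wildtype, 0.00492% in deficient against both fertile genotypes and 0.00492% in heterozygous against wildtype. At an unadjusted p under 0.05 the members numbered 4, 0, 3 and 5 of 25, against 11.9%, 3.66%, 4.31% and 8.3% of all tested genes in the same order. Any pair of these comparisons shares a genotype's libraries.

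**Figure D1:**
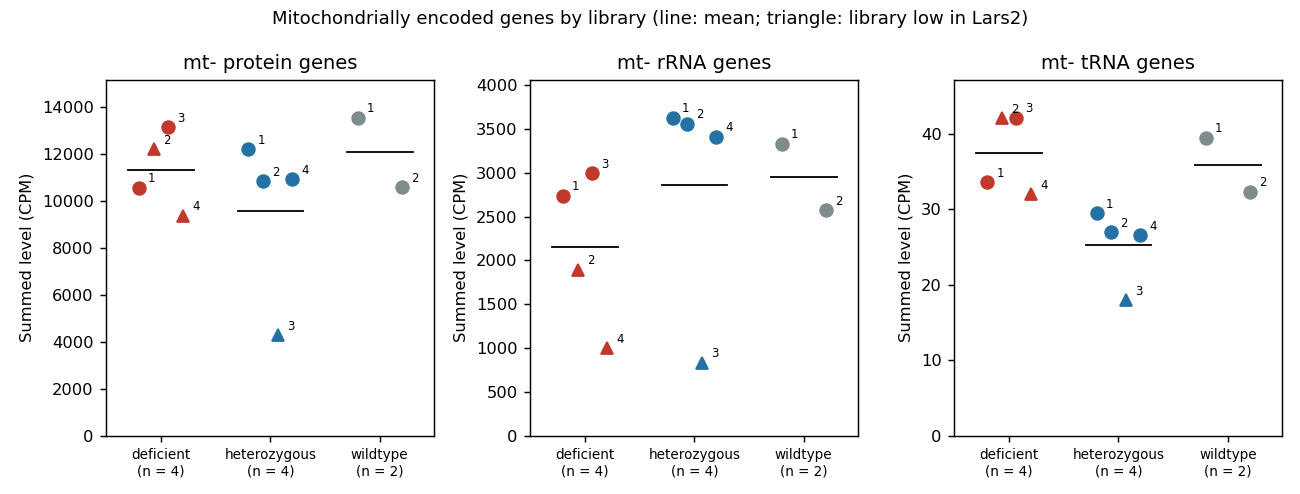
Summed level (CPM) of the mt- protein, rRNA and tRNA genes in each library by genotype. Numbers are replicates, lines are group means and triangles mark the 3 libraries low in Lars2. The 3 triangles are the lowest points of the rRNA panel (834 to 1895 CPM), and the 4 heterozygous points are the lowest of the tRNA panel (17.9 to 29.4 CPM).

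The rRNA genes encode the RNAs of the small (mt-Rnr1) and large (mt-Rnr2) subunit of the mitochondrial ribosome. Their summed level was 2741, 1895, 2995 and 999.9 CPM (deficient), 3628, 3561, 834 and 3414 CPM (heterozygous) and 3335 and 2573 CPM (wildtype). The 3 libraries low in Lars2 held the 3 lowest values, 834 to 1895 CPM, and did not overlap with the other 7, at 2573 to 3628 CPM. Among those 7 libraries the deficient ones stood at 2741 and 2995 CPM, between the wildtype libraries and below the 3 heterozygous ones (3414 to 3628 CPM). The deficient mean was 2158 ± 904 CPM (SD, n = 4), the heterozygous mean 2859 ± 1353 CPM (SD, n = 4) and the wildtype mean 2954 ± 539 CPM (SD, n = 2), and the groups overlapped.

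mt-Rnr2 supplied most of these reads. It stood at 2605, 1768, 2834 and 941 CPM (deficient), 3473, 3419, 801 and 3268 CPM (heterozygous) and 3160 and 2433 CPM (wildtype). mt-Rnr1 stood at 136, 127, 161 and 58.8 CPM (deficient), 155, 142, 33.4 and 146 CPM (heterozygous) and 175 and 140.1 CPM (wildtype). For both genes heterozygous replicate 3 was the lowest library and deficient replicate 4 the next lowest. In deficient against heterozygous libraries edgeR's quasi-likelihood test put mt-Rnr2 at a log2 fold change of -0.43, with an SE of 0.432 and an adjusted p of 0.671, and mt-Rnr1 at 0.02, with an SE of 0.423 and an adjusted p of 0.987. For mt-Rnr2 the value was -0.98 with litter date as a term, -0.69 without heterozygous replicate 3, -0.245 without heterozygous replicate 1 and -0.19 without deficient replicate 4. The sign of mt-Rnr1 was not stable: without heterozygous replicate 3 its log2 fold change was -0.25, and it was also below 0 without deficient replicate 1 (-0.04), 2 (-0.0051) or 3 (-0.13).

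The balance of the 2 rRNAs within a library set the heterozygous libraries apart, and not those low in Lars2. Per kb of gene length, mt-Rnr2 reads exceeded those of mt-Rnr1 by ratios of 13.53, 14.56, 14.48 and 13.50 in heterozygous replicates 1 to 4. The ratios were 11.5, 8.43, 10.6 and 9.67 in deficient replicates 1 to 4 and 10.90 and 10.48 in wildtype replicates 1 and 2, so that the heterozygous libraries lay above all 6 others. The deposited TPM values gave the same order of groups, 14.0 to 15.4 in heterozygous and 9.03 to 12.53 in the 6 other libraries. Within the January 29 litters the heterozygous library stood at 13.5 against 8.43 to 11.5 in 3 others, and within the March 7 litters at 13.5 to 14.6 against 9.67 in the deficient library. This ratio was singled out after its values were seen and is given without a test.

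The rRNA reads per 100 protein-gene reads were, in contrast, low in the libraries low in Lars2. Deficient libraries held 25.9, 15.5, 22.8 and 10.7 of them, heterozygous ones 29.7, 32.9, 19.5 and 31.3, and the wildtype pair 24.6 and 24.3. Deficient replicates 4 and 2 and heterozygous replicate 3 had the 3 lowest values. The part of Lars2 and Gm23935 reads in this pattern was not tested.

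**Figure D2:**
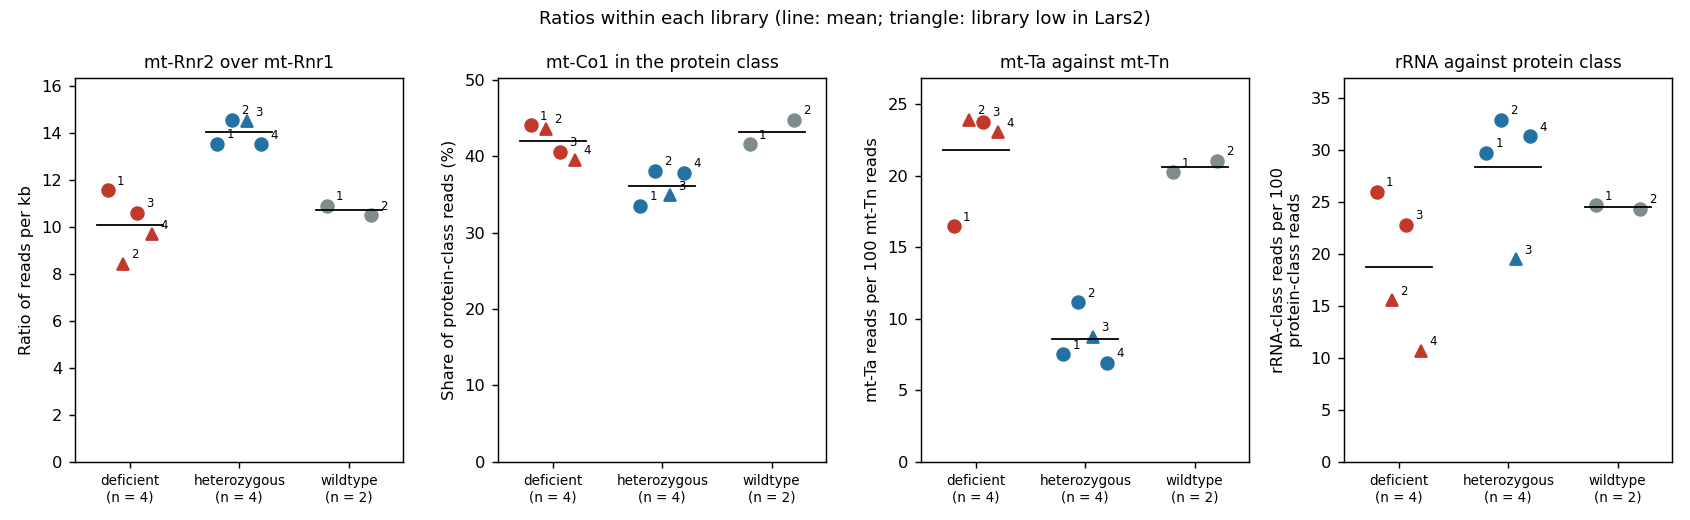
Ratios within each library by genotype: mt-Rnr2 over mt-Rnr1 in reads per kb, the mt-Co1 share of protein-class reads (%), mt-Ta reads per 100 mt-Tn reads, and rRNA-class reads per 100 protein-class reads. The 4 heterozygous libraries stand apart from the 6 others in the first 3 panels (13.5 to 14.6, 33.6% to 38.1% and 6.93 to 11.2), while in the last the 3 libraries low in Lars2 (triangles; lines are group means) are the lowest.

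The 13 protein genes encode 7 subunits of complex I (mt-Nd1, mt-Nd2, mt-Nd3, mt-Nd4, mt-Nd4l, mt-Nd5 and mt-Nd6), 1 of complex III (mt-Cytb), 3 of complex IV (mt-Co1, mt-Co2 and mt-Co3) and 2 of ATP synthase (mt-Atp6 and mt-Atp8). Their summed level was 10566, 12198, 13144 and 9366 CPM (deficient), 12210, 10827, 4282 and 10916 CPM (heterozygous) and 13535 and 10587 CPM (wildtype). Heterozygous replicate 3 was the lowest, and the other 9 libraries lay between 9366 and 13535 CPM with the genotypes overlapping. Deficient replicate 2, low in Lars2 and in rRNA, was among the 4 highest libraries for the protein genes.

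In deficient against heterozygous libraries 8 of 13 protein genes had a log2 fold change above 0 and 5 below, with a median of 0.03 beside -0.05 over all tested genes. In deficient against wildtype 2 stood above and 11 below, with a median of -0.04, and in deficient against both fertile genotypes 5 above and 8 below, with a median of -0.05. In heterozygous against wildtype 5 stood above and 8 below, with a median of -0.04. The medians over all tested genes in these 3 comparisons were 0.00, -0.01 and 0.02.

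mt-Co1, the catalytic subunit of cytochrome c oxidase, was the most abundant protein gene, both in CPM and per kb. It stood at 4656, 5323, 5341 and 3705 CPM (deficient), 4097, 4128, 1496 and 4136 CPM (heterozygous) and 5631 and 4748 CPM (wildtype). The heterozygous libraries lay below both wildtype libraries, the only protein gene of 13 for which these groups did not overlap, where 6.64% of all tested genes lay lower in this way. The log2 fold change in deficient against heterozygous was 0.46 (SE 0.277, edgeR's quasi-likelihood test, adjusted p 0.504). mt-Co1 took 33.6% to 38.1% of the protein-class reads in the heterozygous libraries and 39.6% to 44.8% in the 6 others. In the deposited TPM values the shares overlapped, at 17.3% to 19.98% and 18.9% to 23.5%.

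mt-Cytb, the only mitochondrially encoded subunit of complex III, came next per kb. It stood at 2189, 2729, 2659 and 2156 CPM (deficient), 2643, 2389, 985 and 2332 CPM (heterozygous) and 2854 and 2068 CPM (wildtype). Apart from heterozygous replicate 3 its levels were mixed over the genotypes. The ratio of mt-Co1 to mt-Cytb reads was 1.52 to 1.77 in heterozygous and 1.72 to 2.296 in the 6 other libraries, and in TPM 1.54 to 1.72 and 1.73 to 2.25.

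mt-Nd6, a complex I subunit, is the only protein gene on the minus strand. It stood at 141, 159, 202 and 141 CPM (deficient), 206, 169, 69.8 and 181 CPM (heterozygous) and 199.6 and 165 CPM (wildtype). Its log2 fold change in deficient against heterozygous was 0.04 (SE 0.276, edgeR's quasi-likelihood test, adjusted p 0.953), with -0.16 without heterozygous replicate 3 and -0.07 without deficient replicate 3. mt-Nd6 shares 14 bases with mt-Nd5 on the opposite strand, and whether the counting used strand is not stated. It made up 1.303% to 1.685% of protein-class reads over the 10 libraries.

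mt-Nd4l, another complex I subunit, was the lowest protein gene. It stood at 2.64, 2.80, 3.81 and 1.78 CPM (deficient), 5.74, 4.06, 0.969 and 5.55 CPM (heterozygous) and 4.19 and 3.21 CPM (wildtype). mt-Atp6, the proton channel subunit of ATP synthase, had the smallest p of its class in deficient against heterozygous libraries. It stood at 44.8, 55.3, 56.0 and 53.7 CPM (deficient), 102, 89.2, 44.0 and 89.1 CPM (heterozygous) and 63.7 and 44.2 CPM (wildtype). Of the heterozygous libraries 3 were above all others and 1, replicate 3, below all others. For mt-Atp6 the log2 fold change came to -0.63 (SE 0.237, edgeR's quasi-likelihood test, adjusted p 0.380), and to -0.01 with limma on the deposited TPM values (adjusted p 0.983 on log2(TPM + 1)).

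Near-identical copies of all or part of mt-Atp6, mt-Nd4l and 5 other protein genes stand in the nuclear genome, so that the counts of these genes are uncertain. The effect of the copies on the counts was not tested. Only annotated nuclear transcripts were searched, so copies in the sequence between them, also of tRNA genes, could be missed. Cut into overlapping windows of 50 bases, mt-Co2 was found exactly in annotated nuclear transcripts over 100% of its windows, mt-Co3 over 99.9%, mt-Atp6 over 99.5%, mt-Nd4l over 98.8% and mt-Nd3 over 98%. The shares were 62.2% for mt-Nd4 and 51.1% for mt-Co1. They were 8.19% and 7.61% for mt-Nd2 and mt-Nd5, 1.04% for mt-Rnr2, and 0% for mt-Nd1, mt-Nd6, mt-Cytb, mt-Atp8 and mt-Rnr1. For mt-Atp6, mt-Nd4l and the 5 others the copy with the largest share of windows was an unprocessed pseudogene in 1 run on chromosome 1 (chr1:24611535-24616197), and further copies lie on other chromosomes. Gm28661 matched mt-Co2 over 681 of 681 aligned bases, Gm10925 matched mt-Atp6 over 678 of 678, and Gm28437 matched mt-Co3 over 783 of 783.

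Reads of such identical stretches cannot be told apart by sequence. In each library Gm10925 held 1.04 to 1.34 reads for every read counted to mt-Atp6, Gm28437 1.05 to 1.32 for mt-Co3, and Gm28661 0.655 to 0.914 for mt-Co2. For Gm28661 the heterozygous libraries stood apart, at 0.852 to 0.914 against 0.655 to 0.750 in the deficient and wildtype libraries. For Gm10925 and Gm28437 they overlapped with the others. The 10 tested nuclear copies had log2 fold changes below 0 in deficient against heterozygous libraries, with a median of -0.63 and none called (lowest adjusted p 0.379, edgeR's quasi-likelihood test). By the same test 4 of 10 had an unadjusted p under 0.05, against 11.9% of all tested genes. In heterozygous against wildtype 9 of 10 lay above 0, with a median of 0.57. The copied genes themselves were mixed in deficient against heterozygous libraries. mt-Co1 (0.46), mt-Nd3 (0.10) and mt-Nd4 (0.02) lay above 0, and mt-Co2 (-0.06), mt-Co3 (-0.15), mt-Nd4l (-0.56) and mt-Atp6 (-0.63) below.

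The deposited TPM values, which came from another program, ordered the protein genes differently. For the 2 rRNA genes and mt-Nd1, mt-Nd2, mt-Nd4, mt-Nd5, mt-Nd6, mt-Cytb and mt-Co1 the TPM value was a median of 1.59 to 2.39 times the counted CPM per kb. For mt-Atp6, mt-Nd3, mt-Co2, mt-Nd4l, mt-Atp8 and mt-Co3 it was 14.1 to 39.4 times. mt-Co3 thus ranked 8 of 13 per kb in counts, at 225 ± 61.8 CPM per kb (SD, n = 10), and 1 of 13 in TPM, at 8355 ± 1906 (SD, n = 10). mt-Co1 ranked 1 and 2, at 2800 ± 764 CPM per kb (SD, n = 10) and 6694 ± 1547 TPM (SD, n = 10). Levels of the protein genes relative to one another therefore depended on the quantification for those 6 genes. The ratio is given for protein and rRNA genes only. The tRNA genes, of 59 to 75 bases, summed to 17.9 to 42.1 CPM in counts and 1191 to 2941 in TPM. Their levels may therefore depend on the quantification as well.

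**Figure D3:**
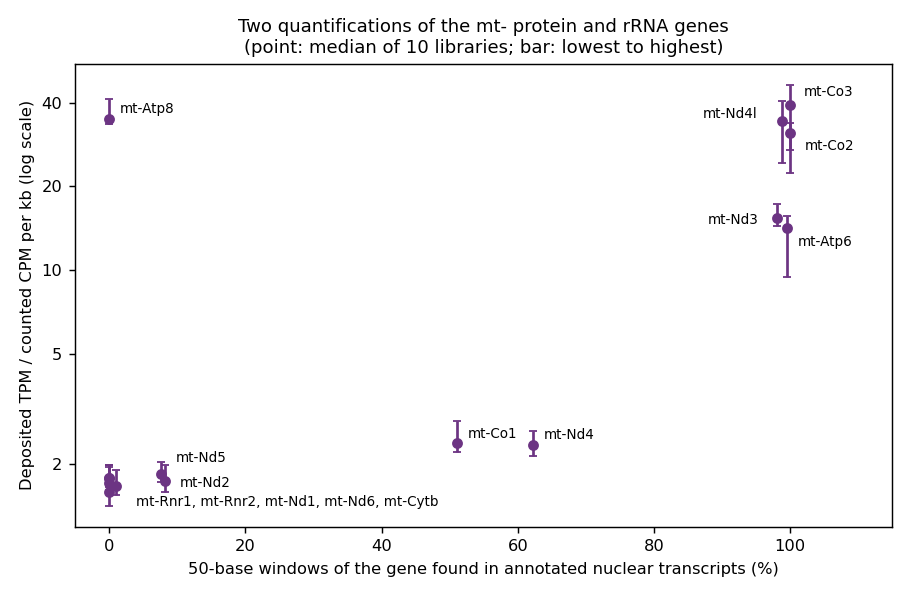
Deposited TPM divided by counted CPM per kb (log scale) against the share of a gene's 50-base windows found in annotated nuclear transcripts (%), for the 13 protein and 2 rRNA genes. Points are medians of 10 libraries and bars run from the lowest to the highest library; 5 genes with 98% to 100% of windows in nuclear copies lie at 14.1 to 39.4, and mt-Atp8 stands with them at 0%.

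mt-Atp8 was the gene outside this order, with no window in an annotated nuclear transcript and a ratio of 35.1. It lies between mt-Co2 and mt-Atp6. The stretch between their copies Gm28661 (chr1:24614885-24615565) and Gm10925 (chr1:24613974-24614651) was not searched. A copy of mt-Atp8 there would therefore not have been seen. mt-Atp8 is the shortest protein gene, of 204 bases, and shares 43 of them with mt-Atp6 in another reading frame. The junction (chrM:7907-7989, plus strand, GRCm38) is shown because a read over it belongs to both genes, with the shared bases in capitals.
mt-Atp8/mt-Atp6: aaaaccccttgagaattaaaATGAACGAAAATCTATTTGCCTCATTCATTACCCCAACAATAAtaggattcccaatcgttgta
mt-Nd4l and mt-Nd4 share 7 bases in the same manner. How the counting treated reads over 2 genes, or reads with several matches, is not stated.

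Of the 3 classes only the tRNA genes had a summed level in counts at which the heterozygous libraries stood apart. Their summed level was 33.6, 42.0, 42.1 and 32.0 CPM (deficient), 29.4, 26.9, 17.9 and 26.5 CPM (heterozygous) and 39.4 and 32.3 CPM (wildtype). All 4 heterozygous libraries stood below all 6 others. The mean was 37.4 ± 5.40 CPM in the deficient group (SD, n = 4). It was 25.2 ± 5.02 CPM in the heterozygous group (SD, n = 4). The wildtype pair averaged 35.9 ± 5.03 CPM (SD, n = 2). In the deposited TPM values the summed tRNA levels of the groups overlapped. They were 1191 to 2660 in heterozygous, 2136 to 2941 in deficient and 2597 to 2699 in wildtype libraries. Deficient replicates 2 and 4, low in Lars2 and rRNA, stood among the other deficient libraries, at the second highest and the lowest level of their group. The tRNA genes of the minus strand held 92.5% to 97.1% of the tRNA reads. In TPM the plus strand had a larger part, with sums of 300 to 657 over the 10 libraries beside 891 to 2324 for the minus strand.

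In deficient against heterozygous libraries 10 of 10 tested tRNA genes had a log2 fold change above 0, with a median of 0.58 beside -0.05 over all tested genes. For 3 of 10 the groups did not overlap, against 3.31% of all tested genes. In heterozygous against wildtype 10 of 10 stood below 0, with a median of -0.88 beside 0.02, and 7 of 10 did not overlap, against 6.64% of all tested genes. These comparisons share the heterozygous libraries. In deficient against wildtype 5 stood above and 5 below 0, with a median of 0.04, and in deficient against both fertile genotypes 8 above and 2 below, with a median of 0.23. No tRNA gene was called by edgeR in any of them.

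mt-Ta had the smallest p of all members. Its level was 1.39, 2.18, 2.66 and 1.48 CPM (deficient), 0.641, 0.728, 0.242 and 0.474 CPM (heterozygous) and 1.82 and 1.46 CPM (wildtype). These values rest on 44 to 83 reads in deficient, 11 to 28 in heterozygous and 45 to 55 in wildtype libraries. Every heterozygous library was below every other library. In deficient against heterozygous the log2 fold change was 1.89 (SE 0.372, 95% interval 1.16 to 2.62), and edgeR's quasi-likelihood test gave an adjusted p of 0.287. In heterozygous against wildtype it was -1.65 (SE 0.431, edgeR's quasi-likelihood test, adjusted p 0.247). In deficient against wildtype it was 0.23, with a 95% interval that spans 0.

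The call on mt-Ta depended on the tool and on 1 library. DESeq2 gave an adjusted p of 0.000616 and a log2 fold change of 1.92 in deficient against heterozygous, in a test that called 1.1% of all tested genes. In heterozygous against wildtype DESeq2 gave 0.0182 and -1.69, calling 2.67% of all tested genes. Without heterozygous replicate 1 edgeR gave an adjusted p of 0.0452 and a log2 fold change of 2.05 in deficient against heterozygous, and called 2.6% of all tested genes. Over all 23 alternatives the log2 fold change stayed above 0, from 0.763 to 2.097, with adjusted p from 0.000616 to 0.669.

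Within litters of 1 date the order held. On January 29 mt-Ta stood at 0.474 CPM in the heterozygous library and at 1.39 to 2.18 CPM in the 3 others, and on March 7 at 0.242 to 0.728 CPM in 3 heterozygous libraries and 1.48 CPM in the deficient one. The deposited TPM values separated the heterozygous libraries too, at 87.5 to 221 against 255 to 326 in the 6 others. Against mt-Tn, its neighbour on the same strand, mt-Ta held 6.93 to 11.2 reads per 100 in heterozygous and 16.5 to 23.9 in the 6 other libraries, and in TPM 45.3 to 50.9 per 100 against 54.5 to 59.7. The separation was smaller in TPM, and the groups did not overlap in either quantification. Against the protein genes the heterozygous libraries lay on both sides of the 6 others. The reads of all tRNA genes per 100 protein-class reads were 0.241, 0.249, 0.419 and 0.243 in heterozygous replicates 1 to 4 and 0.291 to 0.345 in the 6 others, so that replicate 3 was the highest of the 10 libraries and its 3 group members the lowest.

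**Figure D4:**
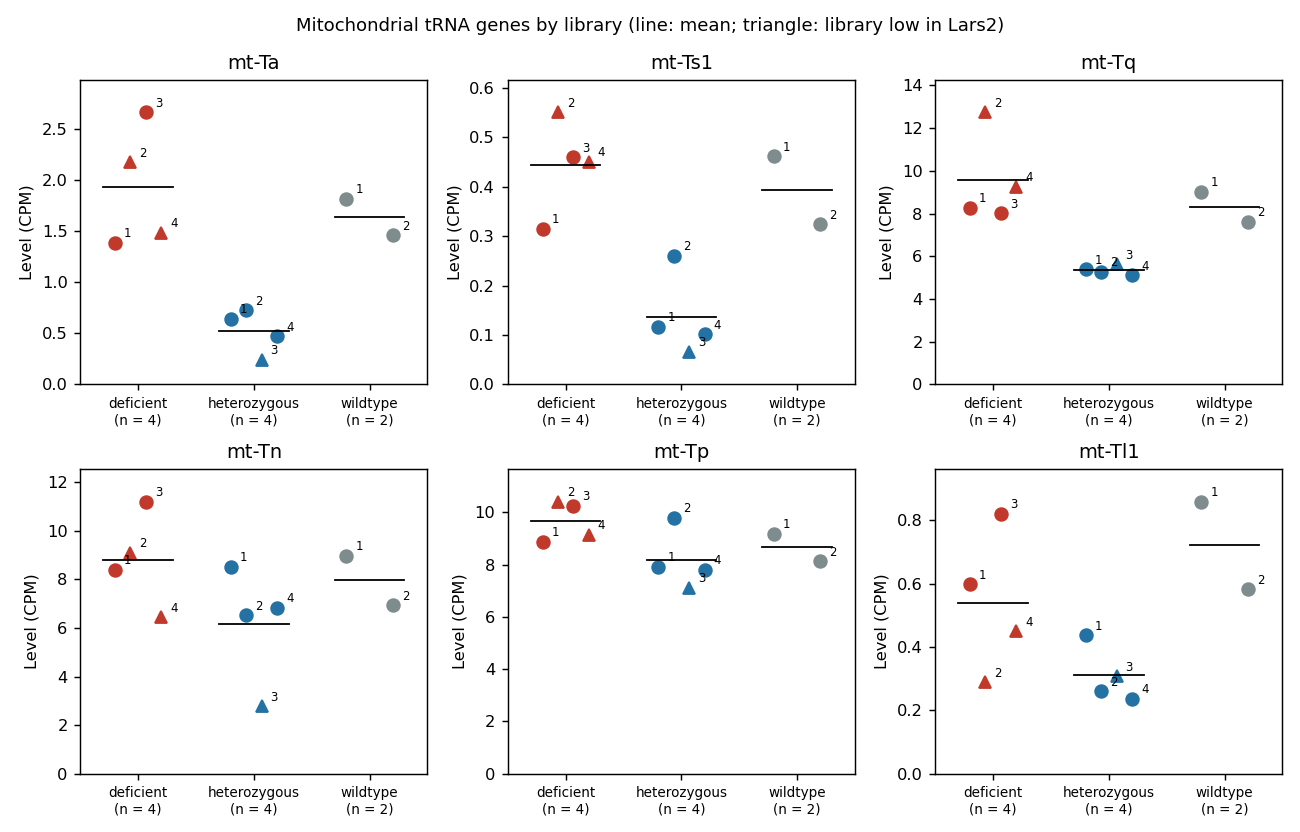
Level (CPM) of 6 mitochondrial tRNA genes in each library by genotype; numbers are replicates, lines group means and triangles the libraries low in Lars2. The 4 heterozygous libraries lie below the 6 others for mt-Ta, mt-Ts1 and mt-Tq, and overlap with them for mt-Tn, mt-Tp and mt-Tl1.

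mt-Tq and mt-Ts1 were singled out after their values were seen, as the only other members whose heterozygous libraries did not overlap with the 6 others. Of all tested genes 1.61% lay lower in the heterozygous libraries in this way and 1.61% higher. mt-Tq stood at 8.28, 12.7, 8.02 and 9.25 CPM (deficient), 5.39, 5.28, 5.64 and 5.11 CPM (heterozygous) and 9.02 and 7.62 CPM (wildtype). Its heterozygous libraries lay close together, replicate 3 included, unlike those of the rRNA and protein genes. Per 100 reads of mt-Nd1, which lies near it on the plus strand, mt-Tq held 0.235 to 0.628 reads in heterozygous and 0.357 to 0.715 in the 6 other libraries, with an overlap through replicate 3. In deficient against heterozygous the log2 fold change of mt-Tq was 0.84 (SE 0.194, adjusted p 0.287 by edgeR's quasi-likelihood test and 0.00423 by DESeq2). mt-Tq shares 3 bases with mt-Ti on the opposite strand.

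mt-Ts1 rests on 3 to 21 reads per library. It stood at 0.315, 0.551, 0.460 and 0.451 CPM (deficient), 0.116, 0.260, 0.0660 and 0.101 CPM (heterozygous) and 0.462 and 0.324 CPM (wildtype). The log2 fold change in deficient against heterozygous was 1.68 (SE 0.474, edgeR's quasi-likelihood test, adjusted p 0.346). The gene shares 3 bases with mt-Co1 on the opposite strand. Like mt-Td, it lies between mt-Co1 and mt-Co2. The chromosome 1 stretch between their copies Gm29216 and Gm28661 was not searched, so a nuclear copy of mt-Ts1 there would not have been seen. In TPM the heterozygous libraries also stood apart, at 61.0 to 106 for mt-Ts1 against 140 to 180 in the 6 others, and at 83.3 to 95.7 for mt-Tq against 104 to 136.

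The other tRNA genes overlapped between the heterozygous and the 6 other libraries. mt-Tp, the proline tRNA gene and the highest of the class on average, stood at 8.88, 10.4, 10.2 and 9.14 CPM (deficient), 7.92, 9.80, 7.11 and 7.81 CPM (heterozygous) and 9.18 and 8.13 CPM (wildtype). Its libraries lay within 7.11 to 10.4 CPM, with heterozygous replicate 3 the lowest.

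The leucine tRNA genes are set beside Lars2, which encodes the enzyme that charges them. The TPM values did not show a lower Lars2 level in the libraries low in Lars2 counts. mt-Tl1 stood at 0.598, 0.288, 0.821 and 0.451 CPM (deficient), 0.437, 0.260, 0.308 and 0.237 CPM (heterozygous) and 0.859 and 0.583 CPM (wildtype). The 3 libraries low in Lars2 counts, at 0.288 to 0.451 CPM for mt-Tl1, lay among the others, which ranged from 0.237 to 0.859 CPM. mt-Tl2 had 0 to 11 reads per library and was not tested, with 0 reads in deficient replicates 1 and 4 and heterozygous replicate 3.

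**Figure D5:**
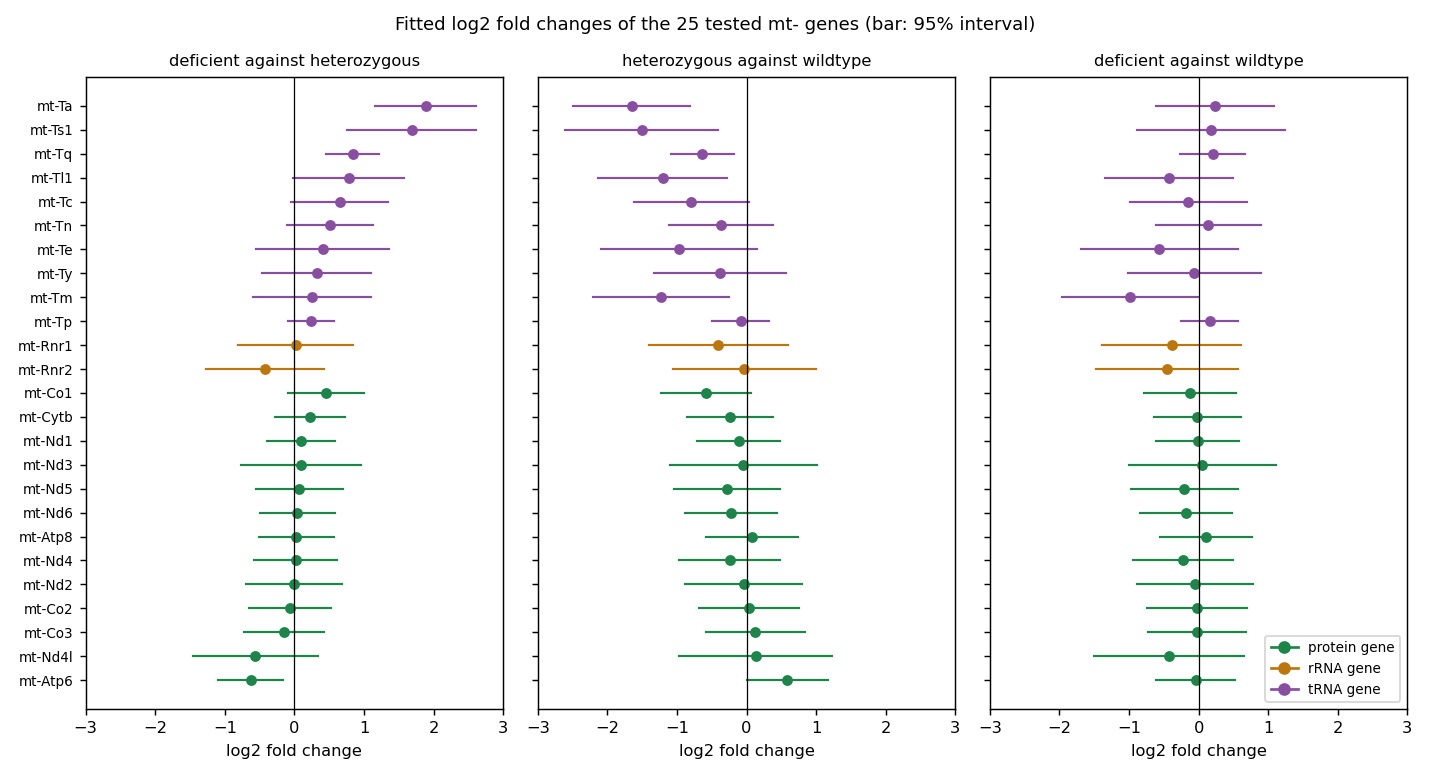
Fitted log2 fold changes of the 25 tested members with 95% intervals in 3 comparisons, ordered by class and by their value in deficient against heterozygous libraries. The 10 tRNA genes lie above 0 in the first panel (0.24 to 1.89) and below 0 in the second (-1.65 to -0.09), which share the heterozygous libraries.

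Markers of other cells and of meiotic stage are given beside the tRNA genes. The 16 blood and macrophage markers summed to 20.2 to 30.2 CPM in deficient, 9.16 to 20.3 CPM in heterozygous and 27.4 to 32.0 CPM in wildtype libraries, with none of them at 0 in every library. Of 15 tested, 10 stood above and 5 below 0 in deficient against heterozygous, and 0 were called. By edgeR's quasi-likelihood test 7 of 15 had an unadjusted p under 0.05, against 11.9% of all tested genes. For 5 of 15 the groups did not overlap, higher in deficient, against 3.31% of all tested genes. The 20 genes of meiotic recombination and axis had log2 fold changes below 0 for 20 of 20 in deficient against heterozygous, with a median of -0.55 and none called. By the same test 2 of 20 had an unadjusted p under 0.05, against the same 11.9%, and the groups overlapped for each gene. Their summed level was 2271, 6210, 5417 and 5357 CPM (heterozygous), 2317 to 4644 CPM (deficient) and 3530 to 3612 CPM (wildtype). The part of these markers in the tRNA result was not tested. In bulk samples fewer cells of a type and less RNA per cell cannot be told apart.

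None of the listed nuclear genes that serve mitochondrial expression was called by edgeR in deficient against heterozygous libraries. Of 19 genes of mitochondrial transcription and replication 15 had log2 fold changes above 0 and 4 below in deficient against heterozygous, with a median of 0.13, and 0 were called by edgeR at an adjusted p under 0.05, with 3 of 19 at an unadjusted p under 0.05, against 11.9% of all tested genes. Polrmt, the polymerase, was at -0.44 (SE 0.158, edgeR's quasi-likelihood test, adjusted p 0.379) and Tfam, which packages the DNA and starts transcription, at 0.31 (SE 0.243, adjusted p 0.591). Of 37 tested genes of mitochondrial RNA processing 23 stood above and 14 below 0, with a median of 0.11, and 0 were called, with 3 of 37 at an unadjusted p under 0.05, against the same 11.9%. Lrpprc, which stabilises mitochondrial mRNAs, was at 0.15 (SE 0.146, edgeR's quasi-likelihood test, adjusted p 0.662).

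Of 19 mitochondrial tRNA synthetases 8 stood above and 11 below 0 in deficient against heterozygous, with a median of -0.01, and 0 were called, with 1 of 19 at an unadjusted p under 0.05, against the same 11.9%. Lars2 was at -0.21 (SE 0.876, edgeR's quasi-likelihood test, adjusted p 0.921). The synthetase with an unadjusted p under 0.05 was Aars2, which charges the alanine tRNA made from mt-Ta and was singled out after its values were seen. Aars2 stood at 22.9, 22.1, 23.9 and 28.4 CPM (deficient), 39.7, 34.7, 39.7 and 34.7 CPM (heterozygous) and 40.4 and 40.7 CPM (wildtype). The deficient libraries were below all others, whereas for mt-Ta it was the heterozygous ones. Of the 20317 tested genes 111 lay lower in the deficient libraries in this way and 172 higher. The log2 fold change of Aars2 was -0.61 (SE 0.134, edgeR's quasi-likelihood test, adjusted p 0.287).

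Of 23 nuclear core partners in the respiratory chain 17 stood above and 6 below 0 in deficient against heterozygous, with a median of 0.12, and for 6 of 23 the groups did not overlap, higher in deficient, against 3.31% of all tested genes. Of these 23, 7 had an unadjusted p under 0.05, against 11.9% of all tested genes, and 0 were called by edgeR. Of 8 tested genes of mitochondrial biogenesis 6 stood above and 2 below 0, with a median of 0.09, and 0 were called, as at an unadjusted p under 0.05.

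The genes outside the mitochondrial genome whose log2 CPM followed the mean of the 13 protein genes most closely over the 10 libraries were Gm7392 (Pearson r = 0.96), Gm28437 (0.95), Pdap1 (0.95), Rpl37a (0.94) and Hnrnpa0 (0.94). Gm28437 is the nuclear copy of mt-Co3 described above. The 10 points share library scaling and include heterozygous replicate 3, which lies far below the other libraries for the protein genes.

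Of the 37 members the authors' deposited table lists 26 and calls none, with 0.743 as the lowest adjusted p. The authors' deposited table puts mt-Ta at 0.99 on the log2 scale, with an SE of 0.452 and a DESeq2 adjusted p of 0.755. Which groups that table compares is not stated.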

How the data were processed

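RNA of 10 libraries was analysed from the deposited files. Per the submitters' processing notes, trimming used Trim Galore 0.5.0 and read checks FastQC 0.11.5, HISAT2 2.1.0 aligned the reads to GRCm38, and SAMtools 1.9 was applied to the alignments. Deposited are raw counts of reads per gene, for which the notes name featureCounts of Subread 1.6.2, and TPM values, for which they name StringTie 1.3.3b. The sources used here do not give the library kit, the strand setting or the annotation. A deposited table of the authors' DESeq2 output holds, per the file headers, the mean normalized signal of each gene, log2 fold changes, their errors, the Wald score, and p-values before and after adjustment.

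Members and lists were chosen with earlier results of these data known. All 55536 gene identifiers were found in GENCODE M21. Genes were kept by edgeR's filterByExpr (20317), scaled by TMM and tested in 1 quasi-likelihood fit over 3 genotypes (edgeR 4.0.16, R 4.3.3), with Benjamini-Hochberg adjustment over all tested genes and calls at 0.05. SE comes from the F statistic and 95% intervals use 1.96 SE, so they are narrower than the test itself would give. Every pair of libraries differed by more than sampling noise (lowest chi-square per degree of freedom 10.6). The test was checked on simulated counts. Alternatives were other scalings and filters, DESeq2 1.42.0, limma 3.58.1 on log2(TPM + 0.1) and log2(TPM + 1), a term for litter date or for replicate number, only the groups compared, and leaving out libraries.

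Genes named by rule were mt-Rnr1, mt-Rnr2, mt-Co1, mt-Nd6, mt-Cytb, mt-Tl1, mt-Tl2, the lowest and highest member of a class, the member with the smallest p of each class in deficient against heterozygous libraries, any called member, Lars2, Gm23935, Polrmt, Tfam, Lrpprc, the nuclear copies, and the 5 genes most like the mean of the protein genes. mt-Ts1, mt-Tq and Aars2, the ratios within a library, and mt-Ta in comparisons other than deficient against heterozygous were chosen after their values were seen. The libraries low in Lars2 were told apart by a measured value and were not tested as a group.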

Additional observations from a re-analysis of the deposited data

Results flagged for a closer look

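Within the 4 heterozygous libraries, replicate 3 lay far below the other 3 for 4 of the 30 groups of values searched. Chance flags about 1 in 20 groups when groups are independent, which these 4 are not: they share 1 library, and mt-Rnr2 supplies most of the summed rRNA level. The summed rRNA level of replicate 3 was 834 CPM against 3414 to 3628 CPM. mt-Rnr1 stood there at 33.4 CPM against 142 to 155 CPM, mt-Rnr2 at 801 CPM against 3268 to 3473 CPM, and mt-Co1 at 1496 CPM against 4097 to 4136 CPM.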

How the results depend on the processing

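No member was called in deficient against wildtype or against both fertile genotypes under any alternative run. In deficient against heterozygous DESeq2 called 2 members, mt-Ta and mt-Tq, and leaving out single libraries called 0 to 1, the 1 being mt-Ta without heterozygous replicate 1. In heterozygous against wildtype DESeq2 called 1, mt-Ta. The median of the tRNA genes in deficient against heterozygous stayed above 0 in 23 of 23 alternatives (0.34 to 0.82), and that in heterozygous against wildtype below 0 in 23 of 23, at -0.388 with limma on log2(TPM + 0.1) and -0.386 on log2(TPM + 1). mt-Rnr1 in deficient against heterozygous turned to -0.0012 with library totals alone, -0.0544 and -0.0554 on the TPM scales and -0.498 with litter date as a term, and ranged from -0.247 to 0.247 with single libraries left out. mt-Nd6 turned to -0.0429 and -0.043 on the TPM scales, -0.114 with litter date and -0.11 without the 3 libraries low in Lars2, and ranged from -0.159 to 0.249 with single libraries left out. The cause was not tested. The replicate numbers did not pair the samples, since correlations of deviations between same-numbered libraries ran from -0.421 to 0.382; with the replicate block 0 members were called in each comparison, and the tRNA median in deficient against heterozygous was 0.66.

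Over all tested genes edgeR called 3 in deficient against heterozygous, 224 with DESeq2, 14 without the filter, 97 without the libraries low in Lars2 and 0 to 519 with single libraries left out, the 519 without heterozygous replicate 1; in heterozygous against wildtype it called 1, against 480 with DESeq2, 268 without the filter, 186 without the libraries low in Lars2 and 147 with only the groups compared. Fitting only the groups compared gave no separate value for deficient against both fertile genotypes, which use all libraries. Without 1 wildtype library, the remaining one was assumed to vary like the other groups. Low counts limit the tRNA genes: 12 of 22 could not be tested.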
